A study of Mus musculus with 27 samples.

Results

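The genes described here are the zinc finger genes with a symbol made of Zfp and digits alone that were expressed in the ribosome-bound RNA of striatal projection neurons of G9a mutant and control mice. Zfp521 was left out of the set. The array annotation held 304 such symbols. A gene was kept when 8 or more of the 27 arrays gave its brightest probe set a log2 value above 6, which left 244 genes. The members were therefore selected on their measured level over all arrays. Of the 244, 211 were above 6 in all 27 arrays and 33 in 8 to 26 arrays. Another 12 genes reached that level in 1 to 7 arrays and 48 in none. Just inside the rule lay Zfp568, a repressor of a placental Igf2 transcript in mice, with 8 arrays above 6 and a mean of 5.87, and Zfp541, a regulator of male meiosis in mice, with 9 arrays and a mean of 5.90. Zfp879 also had 9 arrays above 6, with a mean of 5.93. Just outside lay Zfp551, with 7 arrays and a mean of 5.84.

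Zinc finger proteins of this naming mostly carry fingers of the C2H2 type, in which a pair of cysteines and a pair of histidines hold a zinc ion so that the finger can read DNA. Many belong to the KRAB family, whose members sit side by side in chromosome clusters and recruit the corepressor Trim28 together with the histone methyltransferase Setdb1, which trimethylates lysine 9 of histone H3. G9a, encoded by Ehmt2, is the enzyme that places most of the mono- and dimethyl mark on the same lysine. The symbol is no proof of the domain: Zfp36, a member by name, encodes tristetraprolin, an RNA-binding protein with fingers of another type.

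RNA was collected by translating ribosome affinity purification (TRAP), in which ribosomes of 1 neuron type carry a GFP tag on the protein L10a and are pulled down with the mRNA on them. Drd1-Cre; Drd1-TRAP; G9a fl/fl mice (D1 mutants) gave 4 arrays after cocaine and 3 after saline, and Drd1-TRAP; G9a fl/fl mice (D1 controls) gave 4 after cocaine and 2 after saline. Drd2-Cre; Drd2-TRAP; G9a fl/fl mice (D2 mutants) gave 4 after cocaine and 3 after saline, and Drd2-TRAP; G9a fl/fl mice (D2 controls) gave 4 after cocaine and 3 after saline. All mice were males aged 2 to 5 months on a mixed C57BL/6 and 129/Sv background and carried the tag and both floxed G9a alleles. Each received 8 injections, with cocaine given at 20 mg/kg/day, and tissue was collected 2 h after the final one. Cre was driven by the promoter of the same dopamine receptor as the tag, and controls carried no Cre, so an effect of the deletion and an effect of the Cre transgene cannot be told apart. The RNA is that of a purified pool, in which fewer cells of a type and less RNA per cell cannot be told apart either.

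Ehmt2 checked the labels. It read between 8.03 and 9.37, with a median of 8.72, in the 7 D1 mutant arrays, against 9.95 to 10.74, with a median of 10.46, in the 6 D1 control arrays. In D2 neurons it read between 8.68 and 9.38, with a median of 8.96, in the 7 mutant arrays, against 10.67 to 11.01, with a median of 10.76, in the 7 control arrays. The fitted changes were -1.79 (SE 0.13) in D1 and -1.82 (SE 0.13) in D2 neurons, with no overlap of arrays in either. For replicate 4 of the D2 mutant cocaine group the title and the source name disagree on genotype, and its Ehmt2 value of 8.96 lay among the mutants. All 8 tested markers of D1 neurons were higher, and all 7 of D2 neurons lower, in D1 than in D2 control arrays.

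Array medians over all probe sets lay between 5.70 and 5.82. Among the members, D1 control cocaine replicate 3 stood apart. Its root mean square distance from the mean of its group was 0.34, against 0.20 for the next array. The counts between neuron types, the D2 genotype counts and the cocaine calls are therefore also given without it. The D1 genotype counts are given only as a range over leaving out each array. A glial score, the mean of 16 astrocyte, oligodendrocyte and microglia markers, ran from 7.94 to 8.28 in D2 mutants, against 7.03 to 7.85 in D2 controls, with no overlap. In D1 neurons it ran from 7.48 to 7.93 in mutants, against 7.36 to 7.74 in controls. The differences given below are log2 differences fitted in limma over all arrays, with cocaine and saline groups weighted equally, so they can depart slightly from the difference of plain means. Standard errors (SE) follow them. A gene is said to have risen or fallen when its Benjamini-Hochberg adjusted p over the 12017 genes tested was under 0.05. Values on the array scale rank arrays within 1 probe set and do not rank genes against each other.

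In D1 mutants 12 members rose and none fell, and in D2 mutants 13 rose and 6 fell, each against controls of the same subtype. Both lists of risers share Zfp941, Zfp105, Zfp811, Zfp110, Zfp677 and Zfp991. In D1 neurons the 12 calls are 4.92% of the members, beside 4.22% of all genes tested. In D2 neurons the 19 calls are 7.79% of the members, beside 12.2% of all genes. The D1 share lies near that of all genes and the D2 share below it, and neither difference was tested. An unadjusted p under 0.05 was found for 32 of the 244 members in D1 and 47 in D2 neurons, the called ones included. Among all 12017 genes it was found for 1593 in D1 and 3071 in D2 neurons. The background was 3.1% risen and 1.12% fallen in D1 mutants, and 8.41% risen and 3.82% fallen in D2 mutants, over every gene tested. Of the 211 members above 6 in every array, 9 rose and 0 fell in D1 mutants, while 10 rose and 6 fell in D2 mutants. The members' median difference was 0.05 in D1 neurons, beside 0.01 over all genes, with 66.8% of members above 0 beside 54% of all genes. In D2 neurons the median was 0.03, beside 0.02 over all genes, with 58.6% of members above 0 beside 55.2% of all genes.

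**Figure D1:**
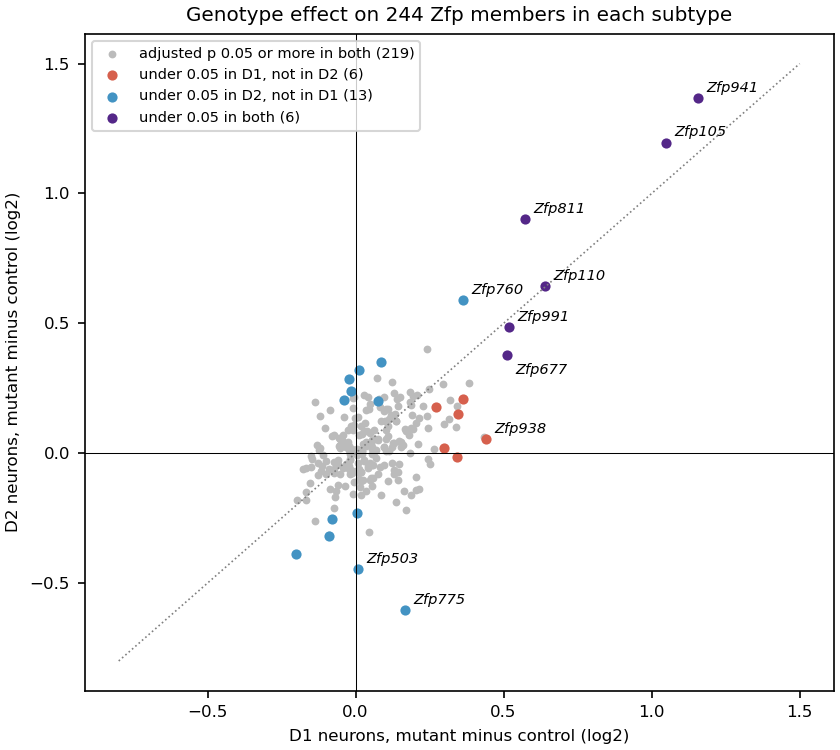
Each point is 1 of the 244 members, with its mutant minus control difference (log2) in D1 neurons on the horizontal axis and in D2 neurons on the vertical axis, coloured by whether the adjusted p was under 0.05. The dotted diagonal marks equal differences; the 6 members called in both subtypes lie at the upper right, and Zfp775 lies lowest.

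Zfp941 showed the highest fitted rise of any member in both subtypes. It read between 8.32 and 9.01, with a median of 8.59, in D1 mutants, against 6.97 to 7.70, with a median of 7.49, in D1 controls. It read between 8.19 and 9.02, with a median of 8.91, in D2 mutants, against 6.94 to 7.79, with a median of 7.45, in D2 controls. Every mutant array was above every control array of its subtype, under either drug. The rise was 1.16 (SE 0.16, 2.23-fold, limma adjusted p = 2.05e-05) in D1 and 1.37 (SE 0.15, 2.58-fold, adjusted p = 2.82e-07) in D2 neurons. A second probe set of the gene, also above 6 in all 27 arrays, gave 0.84 in D1 and 1.04 in D2 neurons.

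Zfp105 came next in both subtypes. It read between 7.03 and 7.65, with a median of 7.29, in D1 mutants, against 5.93 to 6.57, with a median of 6.17, in D1 controls. In D2 neurons it read between 6.43 and 6.96, with a median of 6.67, in mutants, against 5.26 to 5.75, with a median of 5.53, in controls. The D2 control arrays were thus all below 6, the level used as a floor, and the gene entered the set through its other groups, with 19 arrays above 6. The rise was 1.05 (SE 0.11, 2.07-fold, limma adjusted p = 4.55e-07) in D1 and 1.20 (SE 0.11, 2.29-fold, adjusted p = 7.01e-09) in D2 neurons. A fold against values near the floor can understate a change. Its single probe set is of a type (suffix _s_at) that can match several transcripts, so the signal of a related transcript cannot be told apart.

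Zfp811 also had its D2 control arrays near the floor. It read between 6.55 and 7.13, with a median of 6.80, in D2 mutants, against 5.65 to 6.06, with a median of 5.90, in D2 controls. In D1 neurons it read between 7.36 and 7.62, with a median of 7.41, in mutants, against 6.48 to 7.24, with a median of 6.91, in controls. Neither pair overlapped. The rise was 0.90 (SE 0.10, limma adjusted p = 4.22e-07) in D2 and 0.57 (SE 0.11, adjusted p = 0.00112) in D1 neurons. A second probe set, above 6 in 17 arrays, gave 0.93 in D2 and 0.61 in D1 neurons.

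Zfp110 encodes NRIF, a protein that binds the neurotrophin receptor p75NTR. It read between 7.16 and 7.77, with a median of 7.49, in D1 mutants, against 6.64 to 7.06, with a median of 6.86, in D1 controls. It read between 7.39 and 7.82, with a median of 7.74, in D2 mutants, against 6.82 to 7.24, with a median of 7.05, in D2 controls. The arrays did not overlap in either subtype, and the rise was 0.64 in both (SE 0.09 in each, limma adjusted p = 4.93e-05 in D1 and 9.73e-06 in D2). The probe set used has the suffix _x_at and can bind related transcripts. The gene's 2 other probe sets gave 0.81 and 0.91 in D1 neurons and 0.88 and 0.64 in D2 neurons. Zfp369, the related NRIF2 gene, changed by 0.01 in D1 and -0.07 in D2 neurons and was called in neither.

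Zfp677 and Zfp991 rose by smaller amounts. Zfp677 read between 6.42 and 7.17, with a median of 6.63, in D1 mutants, against 6.03 to 6.45, with a median of 6.25, in D1 controls, and the groups overlapped in a narrow band. In D2 neurons it read between 6.51 and 6.92, with a median of 6.63, in mutants, against 6.13 to 6.59, with a median of 6.30, in controls. Its rise was 0.51 (SE 0.09, limma adjusted p = 0.000408) in D1 and 0.38 (SE 0.08, adjusted p = 0.00308) in D2 neurons. For Zfp991, the arrays of D1 mutants, between 6.39 and 7.38, all lay above those of D1 controls, between 5.99 and 6.35. In D2 neurons Zfp991 read between 6.54 and 6.88 in mutants, against 6.09 to 6.60 in controls, with overlap. Its rise was 0.52 (SE 0.12, limma adjusted p = 0.00591) in D1 and 0.49 (SE 0.11, adjusted p = 0.00318) in D2 neurons. The gene's 2 other probe sets averaged 4.59 and 4.05 and never exceeded 6.

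Each of these 6 genes was higher in mutants under cocaine and under saline taken apart. The differences of Zfp941 were 1.42 under cocaine and 0.90 under saline in D1 neurons, and 1.30 and 1.43 in D2 neurons. Those of Zfp105 were 1.01 and 1.09 in D1 neurons, and 1.03 and 1.36 in D2 neurons. The smallest of the set was that of Zfp677 under cocaine, with 0.32 in D1 and 0.31 in D2 neurons.

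**Figure D2:**
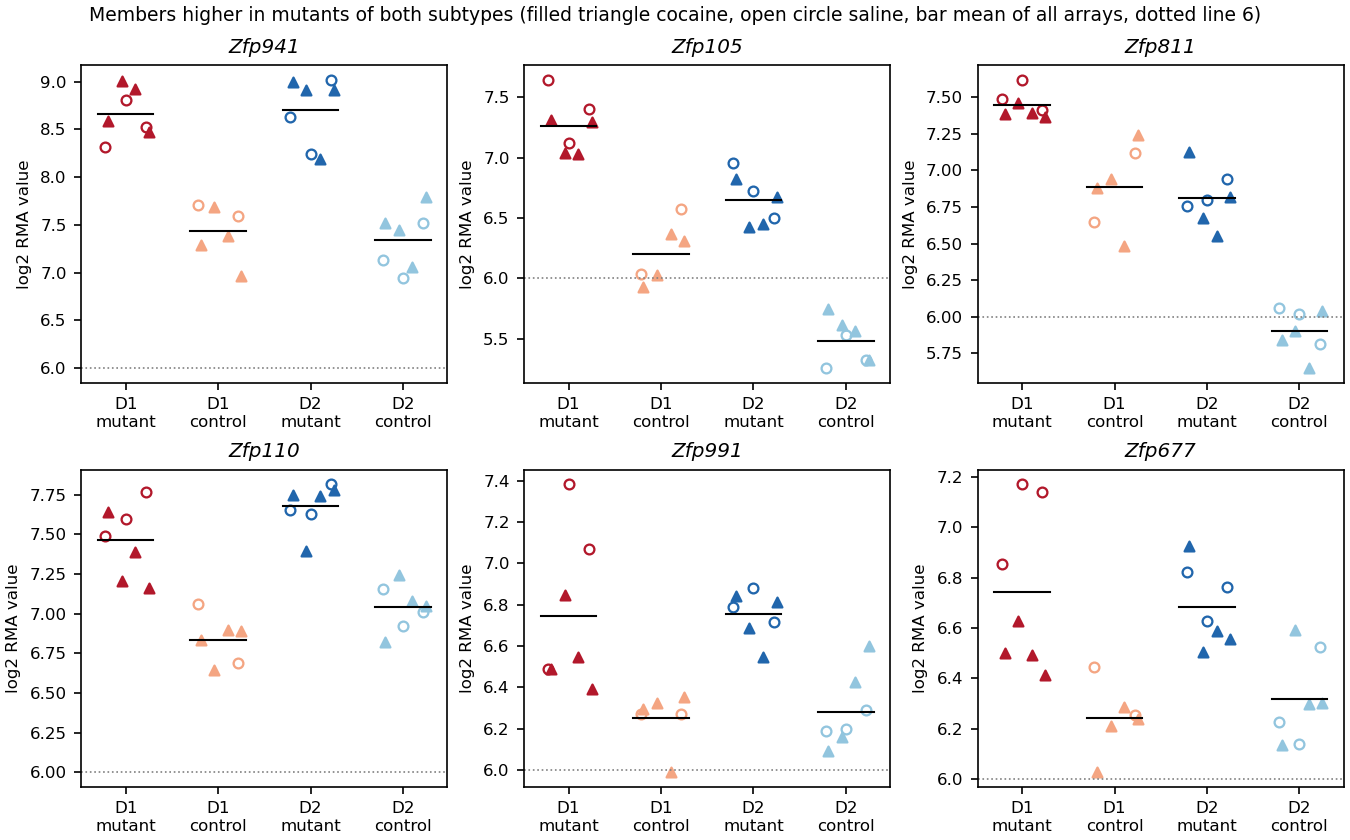
Log2 array values of the 6 members that rose in mutants of both subtypes, 1 panel per gene, with D1 mutant, D1 control, D2 mutant and D2 control arrays from left to right. Filled triangles are cocaine arrays, open circles saline arrays, bars the mean of all arrays of the group, and the dotted line the level of 6; the mutant mean lies above the control mean of the same subtype in every panel.

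The 6 shared genes are 50% of the D1 risers and 46.2% of the D2 risers, and no member fell in both. Over all genes, 263 of 12017 (2.19%) rose in both subtypes and 89 (0.741%) fell in both, so the share of members that rose in both lies near that of all genes. Arrays of mutants and controls did not overlap for 6 members in D1 neurons, where 2.44% of all genes did not overlap, and for 7 members in D2 neurons, where 4.75% did not. The D1 genes were Zfp105, Zfp110, Zfp811, Zfp941, Zfp952 and Zfp991, and the D2 genes were Zfp105, Zfp110, Zfp286, Zfp324, Zfp503, Zfp811 and Zfp941. Across the 244 members the effects in the subtypes, which share no array, had a Pearson correlation of 0.66 and a Spearman correlation of 0.42. Without the 6 shared genes both were 0.38 over 238 members. Over all 12017 genes they were 0.66 and 0.34. Members are not independent points, since all come from the same arrays.

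The promoters of the genes that rose in both subtypes are shown because G9a acts on chromatin and because these genes moved together. The windows are RefSeq sequence of build GRCm38.p6, 300 bases that span the gene's start and lie mostly before it, read 5′ to 3′ on the gene's strand, with each CG pair in capitals. They lie at chr7:140822129-140822428 on the minus strand (Zfp941), chr9:122922828-122923127 on the plus strand (Zfp105), chr17:32809882-32810181 on the minus strand (Zfp811), chr7:12834511-12834810 on the plus strand (Zfp110) and chr17:21383498-21383797 on the plus strand (Zfp677). Zfp991 is named only.
Zfp941: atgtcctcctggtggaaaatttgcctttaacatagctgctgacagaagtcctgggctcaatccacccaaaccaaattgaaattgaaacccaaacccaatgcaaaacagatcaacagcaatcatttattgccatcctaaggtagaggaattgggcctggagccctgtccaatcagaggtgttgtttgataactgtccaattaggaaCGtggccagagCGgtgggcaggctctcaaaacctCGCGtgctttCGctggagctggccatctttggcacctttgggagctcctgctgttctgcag
Zfp105: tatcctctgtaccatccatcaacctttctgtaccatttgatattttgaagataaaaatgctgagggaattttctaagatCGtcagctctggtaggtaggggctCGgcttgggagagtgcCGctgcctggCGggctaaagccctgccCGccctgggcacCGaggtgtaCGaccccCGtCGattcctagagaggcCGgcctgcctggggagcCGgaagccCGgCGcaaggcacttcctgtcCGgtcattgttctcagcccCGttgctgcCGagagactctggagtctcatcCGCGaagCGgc
Zfp811: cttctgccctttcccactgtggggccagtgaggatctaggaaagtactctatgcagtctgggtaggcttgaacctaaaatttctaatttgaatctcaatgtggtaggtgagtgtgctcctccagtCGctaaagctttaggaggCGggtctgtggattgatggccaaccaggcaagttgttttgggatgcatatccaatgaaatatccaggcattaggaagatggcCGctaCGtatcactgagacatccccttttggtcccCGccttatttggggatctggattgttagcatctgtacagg
Zfp110: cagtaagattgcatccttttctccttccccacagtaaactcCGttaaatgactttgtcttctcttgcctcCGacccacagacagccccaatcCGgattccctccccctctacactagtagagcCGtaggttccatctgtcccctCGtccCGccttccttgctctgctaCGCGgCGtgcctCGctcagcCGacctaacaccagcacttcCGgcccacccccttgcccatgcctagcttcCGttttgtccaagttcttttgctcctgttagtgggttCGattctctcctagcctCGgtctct
Zfp677: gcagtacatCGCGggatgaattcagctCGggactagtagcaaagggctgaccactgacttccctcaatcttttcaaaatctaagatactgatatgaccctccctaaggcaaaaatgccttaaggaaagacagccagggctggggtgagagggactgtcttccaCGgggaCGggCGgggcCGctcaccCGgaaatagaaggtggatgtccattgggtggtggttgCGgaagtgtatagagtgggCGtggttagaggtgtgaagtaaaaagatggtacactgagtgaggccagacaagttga
These windows held 5 CG pairs in Zfp941 and in Zfp811, 10 in Zfp677, 15 in Zfp110 and 19 in Zfp105. The median was 10 over these 5, 16 over the 202 members with a window and 21 over the 9681 tested genes with a window.

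A further 6 members rose in D1 mutants without a call in D2 neurons. Zfp938 rose by 0.44 (SE 0.08, limma adjusted p = 0.000841), with 0.05 in D2 neurons. It read between 9.08 and 9.58 in D1 mutants, against 8.62 to 9.26 in D1 controls. The 2 lowest control values, 8.62 and 8.66, were the saline arrays. Leaving out 1 of them keeps the other low value, so it cannot show how far the rise rests on that pair. With 1 array left out at a time, the cocaine effect on Zfp938 differed between D1 mutants and controls by -0.65 to -0.50. The negative sign means that the fitted rise was larger under saline, with 2 control arrays, than under cocaine, with 4. That difference was not called with all arrays, nor without D1 control cocaine replicate 3 (-0.65, limma adjusted p = 0.119). Zfp472 rose by 0.36 (adjusted p = 0.0116), with 0.21 in D2 neurons. Zfp106 encodes an RNA-binding protein whose loss causes motor neuron degeneration in mice. It rose by 0.34 (adjusted p = 0.0238), with -0.02 in D2 neurons, and its arrays overlapped, between 10.92 and 11.20 in mutants and 10.50 and 11.05 in controls. The 2 other Zfp106 probe sets above 6 in all 27 arrays gave 0.07 and -0.17 in D1 neurons, and the mean of all its probe sets gave 0.01 (adjusted p = 0.96), so the rise rests on the probe set used. Zfp952 rose by 0.30 (adjusted p = 0.00985) with no overlap, between 7.86 and 8.12 in mutants and 7.53 and 7.79 in controls. Zfp251 and Zfp157 rose by 0.35 (adjusted p = 0.0182) and 0.27 (adjusted p = 0.0153), and Zfp157 stood at 0.14 (adjusted p = 0.308) with the mean of its probe sets, of which the other was never above 6. All but Zfp938 among these 6 lost the call when 1 of the 2 D1 control saline arrays was left out: Zfp472 stood at 0.28 (adjusted p = 0.17) without replicate 2, while Zfp952 stood at 0.24 (adjusted p = 0.169), Zfp251 at 0.28 (adjusted p = 0.238), Zfp106 at 0.33 (adjusted p = 0.138) and Zfp157 at 0.26 (adjusted p = 0.0997) without replicate 1.

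In D2 neurons 7 more members rose. Zfp760 rose by 0.59 (SE 0.15, limma adjusted p = 0.00732), with 0.36 in D1 neurons. It read between 7.29 and 7.91, with a median of 7.41, in D2 mutants, against 6.46 to 7.38, with a median of 6.73, in D2 controls. Zfp286 rose by 0.35 (SE 0.09, adjusted p = 0.00827), with all mutant arrays between 7.80 and 8.20 and all control arrays between 7.25 and 7.72. Another Zfp286 probe set above 6 in all 27 arrays gave -0.10 in D2 and 0.32 in D1 neurons, where the probe set used gave 0.09, and the mean of all its probe sets gave 0.10 (adjusted p = 0.209) in D2 neurons, so the probe sets disagree on the subtype. Zfp324 rose by 0.32 (SE 0.07, adjusted p = 0.00181), with all mutant arrays between 6.55 and 6.82 and all control arrays between 6.25 and 6.48. Zfp277, which encodes a protein that works with Polycomb complexes in mouse cells, rose by 0.28 (adjusted p = 0.0209). Its other probe set, above 6 in 21 arrays, gave -0.01, and the mean of both gave 0.14 (adjusted p = 0.211). Zfp959 rose by 0.24 (adjusted p = 0.0190), Zfp618 by 0.20 (adjusted p = 0.0475) and Zfp330 by 0.20 (adjusted p = 0.0209), and each of these 3, like Zfp277, lost the call when 1 D2 control saline array, replicate 1, was left out. Zfp618 lost it without any 1 of 18 arrays and with the mean of its probe sets (0.08, adjusted p = 0.305).

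The 6 members that fell did so in D2 mutants. Zfp775 read between 7.77 and 8.68, with a median of 8.28, in D2 mutants, against 8.36 to 9.12, with a median of 8.98, in D2 controls. Its change was -0.60 (SE 0.11, limma adjusted p = 0.000247), while in D1 neurons it was 0.17, with mutant arrays between 8.84 and 9.27 and control arrays between 8.76 and 9.29. Zfp503 encodes Nolz-1, a nuclear factor of the developing striatum. It read between 8.63 and 9.16, with a median of 8.94, in D2 mutants, against 9.20 to 9.68, with a median of 9.42, in D2 controls, so no array overlapped. Its change was -0.45 (SE 0.10, adjusted p = 0.00287) in D2 neurons and 0.01 in D1 neurons, and a second probe set gave -0.39 and -0.08. Zfp346 encodes JAZ, which binds double-stranded RNA. It read between 9.40 and 9.81 in D2 mutants, against 9.76 to 10.24 in D2 controls, with a change of -0.39 (SE 0.06, adjusted p = 6.35e-05) in D2 and -0.20 in D1 neurons. Zfp839 changed by -0.32 (adjusted p = 0.0117), Zfp575 by -0.25 (adjusted p = 0.0281) and Zfp358 by -0.23 (adjusted p = 0.0403). Zfp575 lost the call without any 1 of D2 mutant saline replicate 3, mutant cocaine replicate 2, control saline replicates 1 and 2 and control cocaine replicates 2 and 3, with adjusted p between 0.0574 and 0.0722. Zfp358 lost it without any 1 of 9 arrays, with adjusted p up to 0.138, and with the mean of its probe sets (-0.14, adjusted p = 0.121). With D2 mutant cocaine replicate 4 counted as a control Zfp503 stood at -0.37 (adjusted p = 0.0598).

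**Figure D3:**
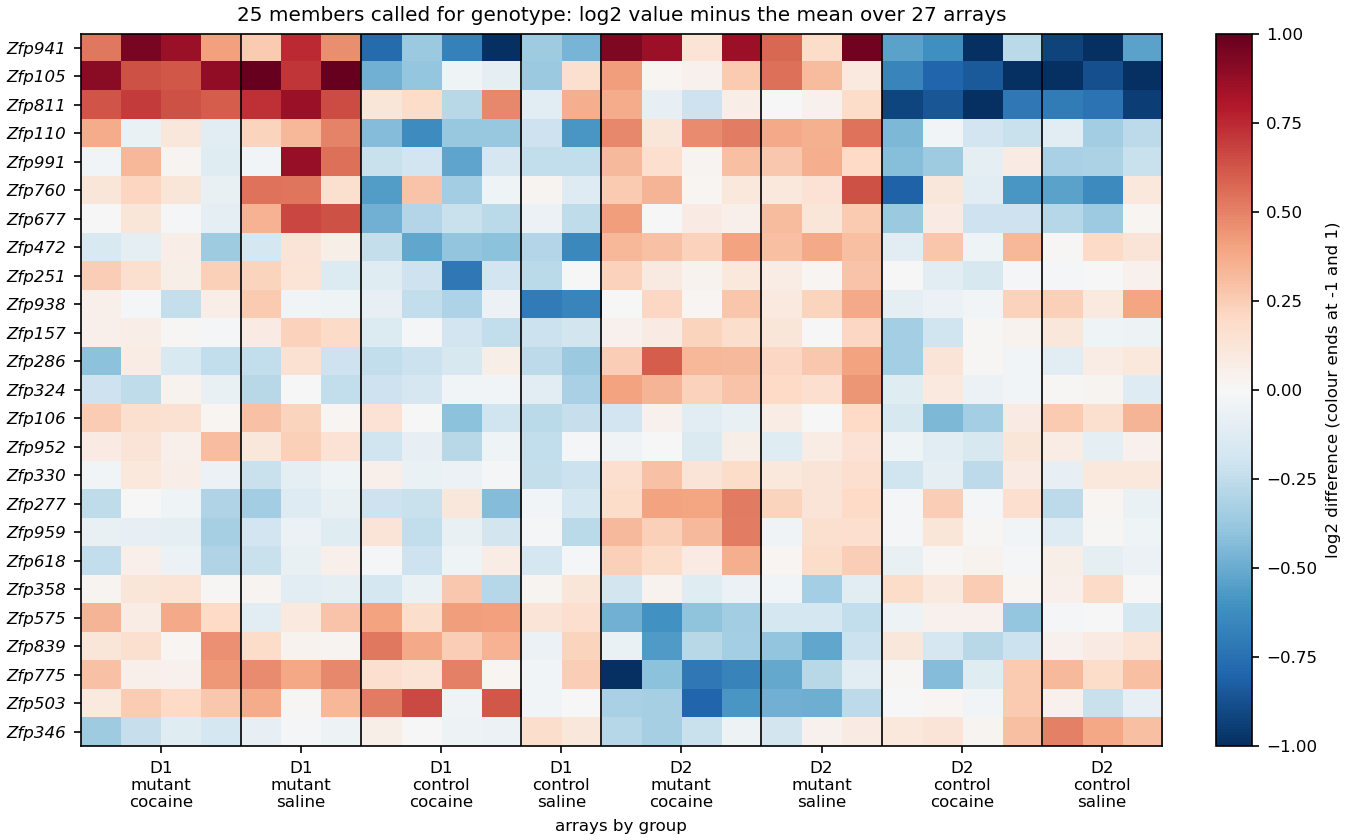
Heat map of the 25 members called for genotype in D1 or D2 neurons, with 1 row per gene and 1 column per array; colour gives the log2 value minus the gene's mean over 27 arrays. The top rows are redder in mutant than in control columns of each subtype, most of the bottom rows are bluer in D2 mutant than in D2 control columns, and the rows Zfp677 and Zfp991 are deepest red in 2 of the 3 D1 mutant saline arrays.

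The promoters of the 2 members with the deepest falls in D2 neurons are shown for contrast with those of the risers. They lie at chr6:48601757-48602056 on the plus strand (Zfp775) and chr14:21989552-21989851 on the minus strand (Zfp503), again with CG pairs in capitals.
Zfp775: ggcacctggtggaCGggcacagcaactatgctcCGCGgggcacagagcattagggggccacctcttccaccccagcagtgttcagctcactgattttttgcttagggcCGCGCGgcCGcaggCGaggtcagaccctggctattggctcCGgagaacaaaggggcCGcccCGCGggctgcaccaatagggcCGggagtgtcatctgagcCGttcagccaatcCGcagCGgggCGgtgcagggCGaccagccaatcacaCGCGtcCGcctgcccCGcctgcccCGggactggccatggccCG
Zfp503: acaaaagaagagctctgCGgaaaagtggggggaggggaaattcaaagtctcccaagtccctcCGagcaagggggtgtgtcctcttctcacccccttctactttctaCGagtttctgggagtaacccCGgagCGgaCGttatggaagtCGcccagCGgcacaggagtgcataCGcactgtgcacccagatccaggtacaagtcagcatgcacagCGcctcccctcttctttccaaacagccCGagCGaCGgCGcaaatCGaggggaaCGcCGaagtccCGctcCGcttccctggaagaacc
Zfp775 held 24 CG pairs and Zfp503 held 19. Over the 5 fallen members with a window the median was 24, against 13 over the 16 members that rose in D1 or D2 mutants and had one. The counts ran from 18 to 31 among the fallen and from 5 to 59 among the risen, and the difference was not tested. Motifs were searched on both strands of all windows by their letters. The 27025 windows include genes that were not tested here, unlike the 9681 windows used for the CG pairs. Members were selected on their level, so the part of expression in the shares below was not tested. CCGGAAG, the core of ETS sites, stood in 20.8% of the 202 member windows and in 9.14% of all 27025 windows, among the shown genes in Zfp105 and Zfp110. The palindromic NRF1 site stood in 4.46% of member windows and 0.981% of all. CCAAT stood in 46.0% and 38.0%, among the shown genes in Zfp941, Zfp811, Zfp110, Zfp677 and Zfp775. GGGCGG, the SP and KLF box, stood in 46.0% and 35.9%, TGACGTCA, the cyclic AMP response element, in 2.48% and 1.85%, and TATAAA, the TATA box, in 7.43% and 14.2%. A match of letters is a description of the window and not a binding site.

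When the difference between the genotype effects (D2 minus D1) was tested itself, Zfp775 was the single member called, at -0.77 (SE 0.15, limma adjusted p = 0.0101), 0.41% of members beside 0.99% of all genes. An unadjusted p under 0.05 was found for 17 of the 244 members, Zfp775 included, and for 1474 of all 12017 genes. The other members called in 1 subtype are therefore not shown to differ between the subtypes. Without D1 control saline replicate 1 the difference of Zfp775 was -0.70 (adjusted p = 0.0685).

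Glial markers also differed by genotype in D2 neurons. Of the tested markers, 6 of 8 for oligodendrocytes and 1 of 6 for astrocytes rose in D2 mutants, and none of 2 for microglia, while in D1 mutants 1 of 8, 0 of 6 and 0 of 2 rose. With the glial score as a covariate, 5 members rose and 2 fell in D2 mutants. Zfp941 then stood at 1.28 (limma adjusted p = 0.000539), Zfp105 at 1.27 (adjusted p = 5.63e-06), Zfp811 at 0.75 (adjusted p = 0.00175) and Zfp110 at 0.67 (adjusted p = 0.00212). Zfp324 stood at 0.37 (adjusted p = 0.0307), Zfp503 at -0.59 (adjusted p = 0.0122) and Zfp346 at -0.34 (adjusted p = 0.0285). The D2 calls of Zfp677 (0.29, adjusted p = 0.259), Zfp991 (0.24, adjusted p = 0.515), Zfp760 (0.24, adjusted p = 0.677) and Zfp775 (-0.51, adjusted p = 0.0707) did not pass in that fit. Zfp277 lost its call too, although its difference was 0.34 (adjusted p = 0.141) there and 0.28 without the covariate. Since the score did not overlap between D2 mutants and controls, glia and genotype cannot be told apart by a call kept or lost in this fit. The measure of RNA quality, the 3′ minus 5′ log2 difference of control probe sets, ran from 2.09 to 2.52 in D2 mutants, against 1.97 to 2.49 in D2 controls, and from 2.16 to 2.68 in D1 mutants, against 1.96 to 2.90 in D1 controls.

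Markers of other cell types moved with genotype too. Of 8 tested markers of D1 neurons, 3 rose in D2 mutants: Drd1 by 0.54 (limma adjusted p = 0.00113), Isl1 by 0.98 (adjusted p = 1.71e-06) and Slc35d3 by 0.56 (adjusted p = 0.0174). The mean of the 8 ran from 8.32 to 8.58 in D2 mutants, against 7.92 to 8.46 in D2 controls, and lay between 10.97 and 11.67 in D1 controls. Zfp811 and Zfp105, which rose in D2 mutants, were also higher in D1 than in D2 controls, and the part of the D1 markers in their rise was not tested. Of 7 tested markers of D2 neurons, Drd2 alone changed in D2 mutants, by -0.49 (adjusted p = 0.00315), and the mean of the 7 ran from 11.18 to 11.53 in D2 mutants, against 11.18 to 11.72 in D2 controls. Of 2 tested markers of cholinergic interneurons, Lhx8 rose in D2 mutants by 1.17 (adjusted p = 5.79e-06). Of 3 tested choroid plexus markers, Kl rose in D1 mutants by 1.55 (adjusted p = 4.12e-11) and in D2 mutants by 2.23 (adjusted p = 2.73e-15), Clic6 rose in D2 mutants by 0.44 (adjusted p = 0.021), and Ttr was called in neither. In D1 mutants no marker of D1 neurons, D2 neurons or cholinergic interneurons was called.

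By position, 132 members lay in 21 clusters, defined as at least 3 members on a chromosome whose Zfp genes start no more than 1 Mb apart, and 112 lay outside. Chromosome 7 alone held 66 members and chromosome 17 held 28. In D1 mutants 6 members rose inside clusters and 6 outside. In D2 mutants 5 rose and 2 fell inside, while 8 rose and 4 fell outside. The median differences inside and outside were 0.05 and 0.04 in D1 neurons, and 0.03 and 0.02 in D2 neurons.

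The cluster with most genotype calls lay on chromosome 17. That chromosome also carries Ehmt2, of which mutants and controls alike carried both floxed alleles, and a relation to its position was not tested. The cluster holds 9 members between Zfp871 and Zfp414. In D1 mutants Zfp811, Zfp472 and Zfp952 rose, all 9 members had a positive difference, and their median was 0.21. Over all members, 66.8% had a positive difference in D1 neurons. Zfp472 and Zfp952 each lost the call when a D1 control saline array was left out, so the cluster's place as the one with most calls rests on them. In D2 mutants only Zfp811 of these 9 was called, 8 were positive and the median was 0.07. In the cluster of 15 members between Zfp160 and Zfp13 on the same chromosome, Zfp677 rose in D1 mutants, and Zfp677 and Zfp760 in D2 mutants, with medians of 0.09 and 0.11. The 6-member cluster between Zfp606 and Zfp446 on chromosome 7 held as many calls, with Zfp110 risen in both subtypes and Zfp324 in D2 mutants. Over chromosome 17 as a whole, 4 of 28 members rose in D1 mutants, beside 2.13% of all genes on it, and 4 rose in D2 mutants, beside 6.93%. On chromosome 7, 2 of 66 members rose in D1 mutants, beside 2.29% of all its genes, and 3 rose and 1 fell in D2 mutants, beside 6.64% and 5.01%.

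Other large clusters held few calls. No member changed in the 12-member cluster between Zfp84 and Zfp566 on chromosome 7 or in the 9-member cluster between Zfp712 and Zfp493 on chromosome 13. In the 8-member cluster between Zfp553 and Zfp646 on chromosome 7, all members had a negative difference in D2 mutants, between -0.16 and -0.03, and none was called. Zfp941, Zfp105 and Zfp991 lay outside clusters.

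**Figure D4:**
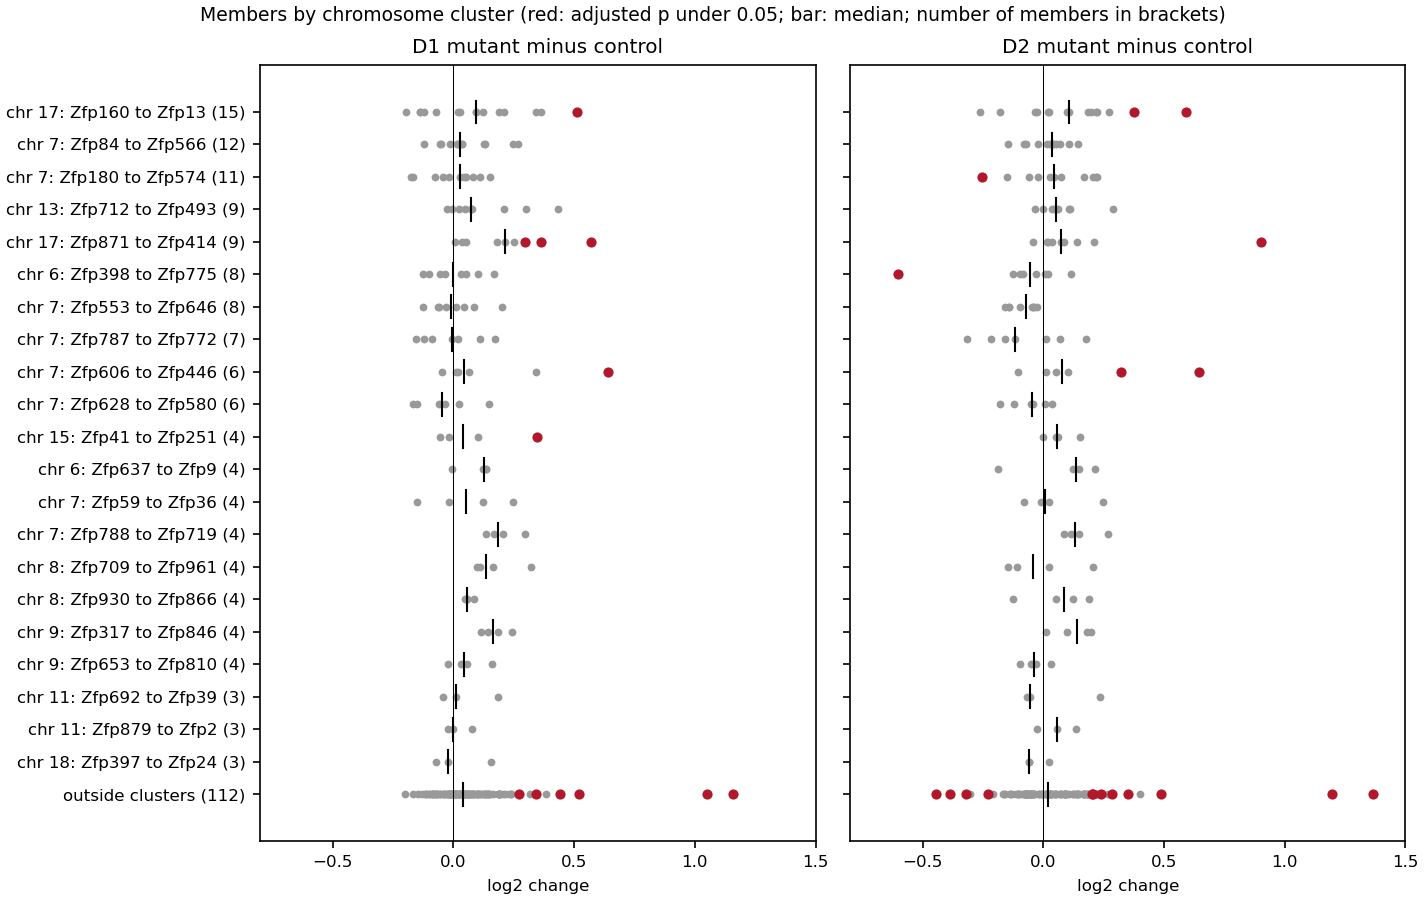
Mutant minus control differences (log2) of the members by chromosome cluster, D1 neurons on the left and D2 neurons on the right, with the number of members in brackets. Each point is a member, red where the adjusted p was under 0.05, and the bar is the cluster's median; the 3 red points of the cluster Zfp871 to Zfp414 in D1 neurons are Zfp952, Zfp472 and Zfp811.

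The genes next to the shared risers were mostly not called. Neither were most genes tested, of which 4.22% were called in D1 and 12.2% in D2 mutants. Of the 2 tested genes on each side of Zfp941, Zfp105, Zfp811, Zfp110, Zfp677 and Zfp991, only Znf41-ps, listed as the nearest before Zfp991, was called, with 0.53 (limma adjusted p = 0.0329) in D1 and 0.36 (adjusted p = 0.0826) in D2 neurons. Whether the probe sets of these neighbours also bind each other's RNA was not tested. Zfp51, next to Zfp677, stood at 0.12 and 0.27, and Zfp871, next to Zfp811, at 0.04 and 0.09. Near Zfp775, the immune gene Gimap8 rose, by 1.13 (adjusted p = 1.22e-06) in D1 and 1.43 (adjusted p = 3.07e-09) in D2 neurons. These neighbours were looked up after the members' values had been seen.

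In control mice, D1 neurons had 18 members higher and 36 lower than D2 neurons. These 54 calls are 22.1% of the members, beside 29% of all genes, of which 11.9% were higher and 17.1% lower. Markers of other cell types differed in this comparison too. Of those tested, 5 of 8 for oligodendrocytes and 2 of 2 for cholinergic interneurons were lower in D1 controls. Higher there were 4 of 5 for GABAergic interneurons, 2 of 2 for cortical excitatory neurons and 2 of 6 for astrocytes. With the glial score as a covariate 17 members were higher and 30 lower. The part of other cell types in the 54 calls was not tested. Arrays of the neuron types did not overlap for 12 members, beside 8.66% of all genes. The median difference was -0.08, beside -0.03 over all genes. Inside clusters 5 members were higher and 25 lower, and outside 13 were higher and 11 lower. Without D1 control cocaine replicate 3 the counts were 26 higher and 41 lower, and without D1 control saline replicate 2 they were 11 and 17.

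Among the members higher in D1 neurons, Zfp811 read between 6.48 and 7.24 in D1 controls, against 5.65 to 6.06 in D2 controls, a difference of 0.97 (SE 0.11, limma adjusted p = 2.7e-07). Zfp105 differed by 0.76 (SE 0.11, adjusted p = 2.01e-05) with no overlap. Both D2 groups lay at the floor, so these differences too are limited by background. Zfp189, a transcription factor tied to stress resilience in the mouse prefrontal cortex, read between 6.89 and 7.56 in D1 controls, against 6.19 to 7.07 in D2 controls, a difference of 0.77 (SE 0.15, adjusted p = 0.000317) with overlap. Zfp711, whose human counterpart is linked to X-linked intellectual disability, differed by 0.63 (SE 0.14, adjusted p = 0.00170). Zfp512 differed by 0.59 (SE 0.06, adjusted p = 1.13e-07), between 10.11 and 10.32 in D1 controls and 9.46 and 9.79 in D2 controls. Zfp9 and Zfp275 differed by 0.52 and 0.43, each with an adjusted p of 0.0017. Zfp516, an activator of the brown fat gene Ucp1 in mice, differed by 0.42 (adjusted p = 0.0214) with the probe set used, but another probe set of the gene gave -0.12, so its direction is uncertain. Without D1 control saline replicate 2, Zfp516 (adjusted p = 0.101) lost the call.

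Among those lower in D1 neurons, Zfp608 read between 5.74 and 6.29 in D1 controls, against 6.49 to 6.91 in D2 controls, a difference of -0.65 (SE 0.11, limma adjusted p = 0.000123). Zfp938 differed by -0.55 (adjusted p = 1.67e-05), Zfp846 by -0.55 (adjusted p = 0.000443) and Zfp472 by -0.54 (adjusted p = 4.9e-05). Zfp428, Zfp429, Zfp160 and Zfp3 differed by -0.51, -0.47, -0.46 and -0.46, and Zfp160 lost the call (adjusted p = 0.0776) without D1 control saline replicate 2. For Zfp846 all D1 control arrays lay below the floor of 6, between 5.44 and 5.73, against 5.72 to 6.37 in D2 controls, and Zfp429 and Zfp608 had D1 control medians of 5.86 and 6.01. Zfp846 was above 6 in 11 arrays, none of them a D1 control, so it passed the level rule through other groups. Zfp429 and Zfp608 were above 6 in 22 and 21 arrays. The D1 control values of these 3 genes lay below or near the floor, so their differences are limited by background. Second probe sets gave smaller differences. That of Zfp3, above 6 in all 27 arrays, gave -0.08, and that of Zfp160, above 6 in 22 arrays, gave -0.16. That of Zfp608, above 6 in 8 arrays, gave -0.31. Of smaller size, Zfp703, a transcriptional corepressor, differed by -0.35 and Zfp746, which encodes the parkin substrate PARIS, by -0.18. The cluster between Zfp709 and Zfp961 on chromosome 8 had 3 of 4 members lower in D1 neurons and a median of -0.35, while the 15-member cluster on chromosome 17 had 4 lower and 0 higher.

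Control arrays enter both the comparison of neuron types and those of genotype, so values are given side by side and no relation is drawn. Zfp811 had 0.97 for D1 minus D2 in controls, 0.57 for genotype in D1 and 0.90 for genotype in D2. Zfp105 had 0.76, 1.05 and 1.20. Zfp938 had -0.55, 0.44 and 0.05, and Zfp472 had -0.54, 0.36 and 0.21. Zfp575 had 0.32, -0.08 and -0.25, and Zfp839 had 0.25, -0.09 and -0.32.

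**Figure D5:**
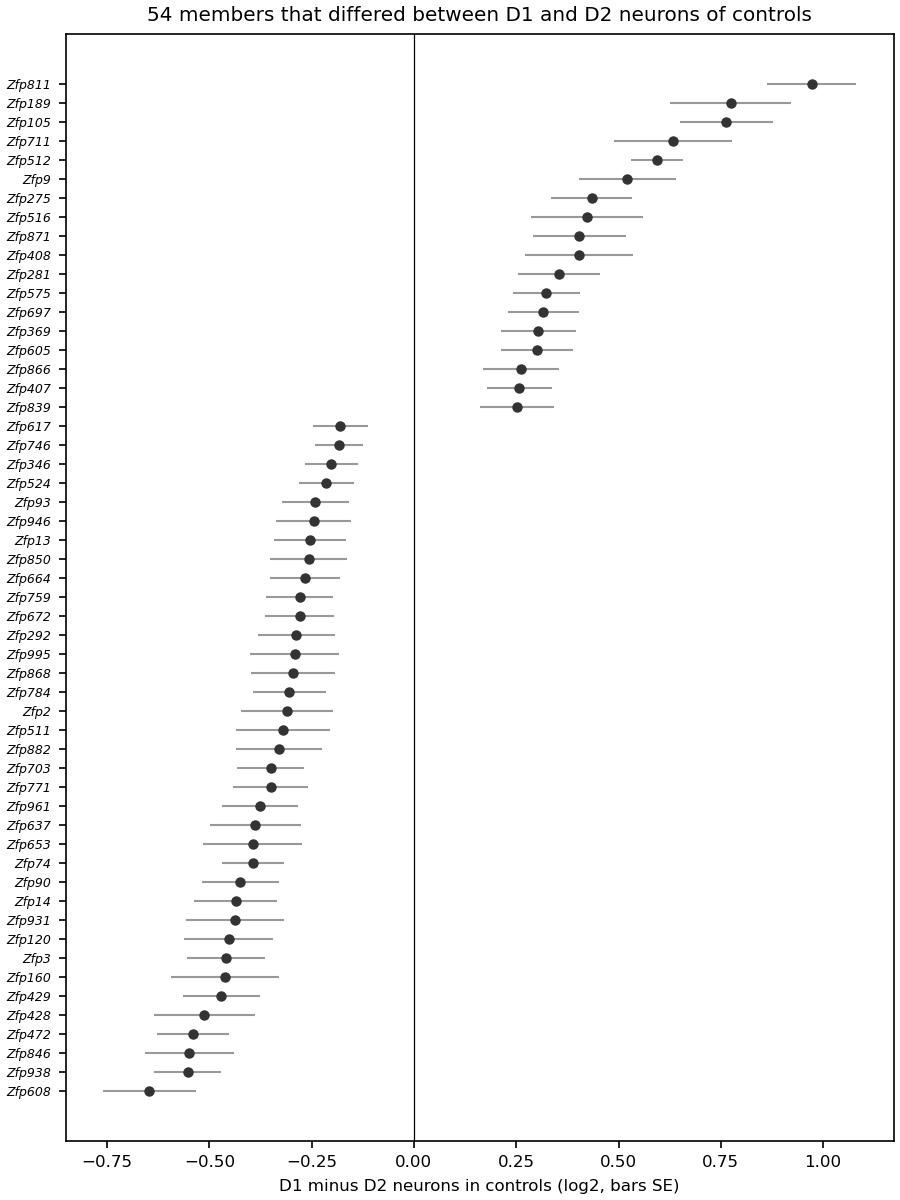
The 54 members that differed between neuron types in control mice, ordered by the D1 minus D2 difference (log2), with bars of 1 standard error. The 18 members higher in D1 neurons, led by Zfp811 at 0.97, are above, and the 36 lower ones, down to Zfp608 at -0.65, are below.

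Repeated cocaine changed no member past the threshold in any of the 4 groups, by limma with Benjamini-Hochberg adjustment. Of the 244 members, 18 in D1 controls, 24 in D1 mutants, 20 in D2 controls and 14 in D2 mutants had an unadjusted p under 0.05. Among all 12017 genes, 1402, 1412, 1130 and 588 had one, in the same order. Past the adjusted threshold, 0.0666% of all genes were called in D1 controls, 0.0915% in D1 mutants, 0.133% in D2 controls and 0% in D2 mutants. The difference of the cocaine effect between mutants and controls was called for 0 members and 0% of all genes in D1 and in D2 neurons. There 14 and 5 members had an unadjusted p under 0.05, beside 1340 and 583 of all 12017 genes.

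The member closest to the threshold was Zfp677 in D1 mutants. It read 6.50, 6.63, 6.49 and 6.42 after cocaine, against 6.85, 7.17 and 7.14 after saline, so the groups did not overlap, with a difference of -0.55 (SE 0.12, limma adjusted p = 0.0670). Zfp523 in D2 controls read 8.23, 8.20, 8.32 and 8.60 after cocaine, against 8.90, 8.68 and 8.80 after saline, a difference of -0.46 (SE 0.10, adjusted p = 0.0772). Zfp106 in D2 controls differed by -0.47 (adjusted p = 0.112). In D1 controls Zfp282 read 6.45, 6.33, 6.11 and 6.17 after cocaine, against 6.70 and 6.65 after saline, and Zfp938 read 9.23, 9.07, 9.01 and 9.26 against 8.62 and 8.66. Their differences were -0.41 and 0.51 (adjusted p = 0.106 for each), and Zfp503 differed by 0.46 (adjusted p = 0.247) in the same comparison. In D2 mutants the smallest p belonged to Zfp27, at 0.42 (adjusted p = 0.565). Without D1 control cocaine replicate 3, Zfp503 (0.62, adjusted p = 0.0335) and Zfp938 (0.55, adjusted p = 0.0413) in D1 controls and Zfp677 (-0.55, adjusted p = 0.0444) in D1 mutants passed.

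Of 24 listed genes of the KRAB corepressor and of histone H3 lysine 9 trimethylation, 20 were tested. In each subtype 2 of them were called, which is 10% of the list, beside 4.22% of all genes in D1 and 12.2% in D2 neurons. In D1 mutants Atf7ip, a partner of Setdb1, rose by 0.44 (limma adjusted p = 0.0365) and Hdac1 fell by 0.52 (adjusted p = 0.000742). In D2 mutants Atf7ip rose by 0.36 (adjusted p = 0.0402), and Cbx5, which encodes heterochromatin protein HP1 alpha, fell by 0.30 (adjusted p = 0.00105). In each subtype the other 18 tested genes were not called. Trim28 stood at -0.06 in D1 and -0.05 in D2 neurons, and Setdb1 at -0.05 and 0.09. Of the 5 listed genes of the G9a complex only Ehmt2 was called. Zfp644, a member whose protein partners G9a together with Wiz, stood at 0.03 in D1 and 0.04 in D2 neurons, and Wiz at 0.04 and -0.03.

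Zinc finger genes of other named families (Zbtb, Zscan, Zkscan, Klf, Prdm, Zic, Egr, Sp, Ikzf and Glis) gave a comparison group of 83 tested genes of 105 listed. Of these, 2 rose and 0 fell in D1 mutants, and 6 rose and 4 fell in D2 mutants. Between control mice, 11 were higher and 7 lower in D1 than in D2 neurons. These calls are 2.41%, 12% and 21.7% of the group, beside 4.92%, 7.79% and 22.1% of the members. Among all genes the shares were 4.22%, 12.2% and 29%. Medians of the comparison group were 0.01, 0.02 and -0.01, beside 0.05, 0.03 and -0.08 for the members. Under cocaine, 2 of the 4 Egr genes, immediate early transcription factors, rose in D1 mutants, while no member did.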

How the data were processed

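Per the submitters' processing notes, the authors summarised 27 Affymetrix mouse arrays by robust multi-array averaging (RMA) with Expression Console 1.1, and the values deposited for 45101 probe sets are log2 levels. RMA corrects background and normalizes across arrays, which compresses differences of dim probe sets. The number of arrays limits the precision. No batch is named in the labels, and the smallest mean absolute difference between 2 arrays was 0.137, so no array repeats another.

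Each gene was represented by its brightest probe set with exactly 1 symbol in the 2016 annotation, and genes above 6 in at least 3 arrays were tested. The model, fitted with limma 3.58.1 (R 4.3.3) to all arrays, had a mean for each group of neuron type, genotype and drug. Benjamini-Hochberg adjustment ran over 12017 genes for each contrast. Each array is 1 sample of its group, taken as a separate mouse from the study's count of mice per group. Same-numbered arrays of different groups had a mean correlation of 0.018 in their deviations, so numbers were not treated as pairs. The fit was tested on simulated data.

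Members matched RefSeq by gene ID, 244 of 244, and 202 had a promoter window. Protein sequences were not used here. Named members are, per contrast, up to 8 called ones of largest change in each direction (same sign under both drugs for genotype), the 3 of smallest p where none passed, and those at the edge of the level rule. The members with remaining genotype calls, Zfp369, Zfp703, Zfp746, neighbours and other probe sets were added after values were seen. Members and lists were chosen with earlier results of these data known.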

Additional observations from a re-analysis of the deposited data

Results flagged for a closer look

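In groups of 4 arrays, 1 array can lie far from the other 3. The members named for a comparison were checked for a gap to the nearest array that took up most of the group's range (Dixon's criterion at 95%), and chance alone gives such a gap in about 5% of groups. Over all 244 members the criterion was met in 5.64% of groups of 4, and most often in D1 control cocaine replicate 3, for 16 members.

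In D2 mutants after cocaine, Zfp941 read 8.19 in replicate 3, with the nearest array at 8.91, and Zfp110 read 7.39 in replicate 2, with the nearest at 7.74. Both values stayed above every D2 control array. In replicate 1 of the same group Zfp109 read 5.86, Zfp608 read 6.21 and Zfp711 read 7.49, each below the other 3 arrays. In D2 controls after cocaine, Zfp503 read 9.68 in replicate 4, with the nearest at 9.44, and Zfp109 read 6.50 in replicate 1, with the nearest at 6.14.

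In D1 mutants after cocaine, Zfp959 read 7.85 in replicate 4, with the nearest at 8.07. In D1 controls after cocaine, replicate 3 was low for Zfp251, at 9.03, and for Zfp991, at 5.99. Without that array Zfp991 still rose in D1 mutants, by 0.48 (limma adjusted p = 0.0124). In the same group Zfp429 read 6.27 in replicate 4 and Zfp575 read 8.84 in replicate 2, with the nearest arrays at 5.87 and 9.06.

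The genotype effect on Zfp775 differed between D2 and D1 neurons by -0.77, by the test of the difference itself given above. With the glial score as a covariate it was -0.70 (adjusted p = 0.077).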

How the results depend on the processing

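Of 48 called values of named members, 23 kept their call and direction under all 42 alternatives, 3 under the 41 that could be run for them, and 22 lost it under at least 1. The genotype calls of Zfp941, Zfp811 and Zfp110 in both subtypes were among the 23. The 3 belong to Zfp105, whose single probe set ends in _s_at and drops out where such probe sets are left out. With the mean of all its probe sets Zfp991 lost its D1 call (0.17, adjusted p = 0.122). In all alternatives the cause of a shift was not tested. Those that keep only members above 7 in at least 8 arrays, or above 6 in all 27, use the same fit. They change which members are counted and could not change the call of a gene.

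Leaving out 1 array at a time gave 11 to 26 members higher and 17 to 41 lower in D1 than in D2 controls. It gave 9 to 13 risen and 0 to 0 fallen in D1 mutants, 9 to 18 risen and 4 to 8 fallen in D2 mutants, and, for the genotype effect of D2 minus D1, 0 to 0 higher and 0 to 2 lower. The D1 control saline group then kept 1 array at times, assumed to vary like the other groups. The 18 risen and 8 fallen in D2 mutants came without D1 control cocaine replicate 3, which enters that comparison only through the shared spread. The cocaine counts ran from 0 to 2 in D1 controls, 0 to 1 in D1 mutants, 0 to 2 in D2 controls and 0 to 0 in D2 mutants, and from 0 to 0 for either difference between genotypes. The 2 in D2 controls were Zfp523 and Zfp106, without cocaine replicate 4.

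Array weights moved most counts: 29 higher and 55 lower between neuron types, 1 fallen in D1 mutants, 23 risen in D2 mutants, and 7, 4 and 2 cocaine calls in D1 controls, D1 mutants and D2 controls. The glial covariate left 5 risen and 2 fallen in D2 mutants and 0 lower in the difference of genotype effects. With D2 mutant cocaine replicate 4 counted as a control, 3 fell in D2 mutants and 0 were lower in that difference, and keeping the 184 members above 7 left 8 risen in D2 mutants. Cyclic loess and median centring each gave 1 fallen in D1 mutants. The difference had 2 lower members under cyclic loess, without the 3 arrays with high Ttr (a choroid plexus gene), and with the replicate number as a block, which changed no other count by over 1.5 times. One cocaine call each appeared in D1 controls without the high Ttr arrays (1), in D1 mutants with the mean of all probe sets (1) and in D2 controls with the RNA quality covariate (1).

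Without probe sets ending in _s_at or _x_at, Zfp516 turned to -0.12 between neuron types, and the difference of the cocaine effect of Zfp771 in D1 turned to -0.00143. Dim probe sets limit what can be seen: 48 of 304 symbols were above the floor in no array and 12 in too few.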
